A study of Mus musculus with 11 samples.

Results

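Red cell and platelet transcripts were examined in mouse liver sinusoidal endothelial cells, abbreviated LSEC, which line the hepatic capillaries and have open pores. They were chosen by gene symbol, as the erythroid genes Klf1, Gata1, Alas2 and Hba-a1 and the platelet genes Pf4, Ppbp, Gp9 and Gp1bb. Of these 8 symbols 6 had a transcript cluster under the platform annotation used, out of 19505 distinct symbols, and Hba-a1 and Gp1bb were not analysed here. Each of the 6 had 1 cluster. The knockout group (5 arrays) held Atg5lox/lox;VE-cadherin-Cre mice, titled autophagy deficient, and the wild type group (6 arrays) held Atg5lox/lox mice without the Cre. All mice therefore carried floxed Atg5, a gene needed to form autophagosomes. All were put on a high fat diet at 8 weeks of age and sampled after 2 weeks. The series asks what endothelial autophagy does in fatty liver disease. The VE-cadherin promoter drives Cre in endothelium, and constitutive lines of this kind are known to be active also in the embryonic endothelium that forms blood cells. Whether the line used here is constitutive, and whether an array stands for 1 animal or a pool, is not given in the sources used here.

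Red cells and platelets arise from a shared progenitor under the zinc finger factor GATA1. Its partner KLF1 switches on adult globin and other red cell genes, and ALAS2 makes the first intermediate of heme in erythroid cells. Megakaryocytes pack the chemokines PF4 and PPBP into platelet alpha granules and carry the glycoprotein Ib-IX-V complex, of which GP9 is a subunit, as the receptor for von Willebrand factor. Mature red cells and platelets have no nucleus but keep some RNA, the fetal liver makes red cells, and adult sinusoids are filled with blood, so these transcripts can report on blood cells in an endothelial preparation. In such bulk RNA, fewer cells of a type and less RNA per cell cannot be told apart.

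The promoters below are those of Klf1, the transcript whose groups did not overlap, of its regulator Gata1, and of Pf4 and Gp9, the pair with the most negative correlation between arrays. They run from 250 bases before to 50 bases after the start site, 5′ to 3′ on the strand of the gene, from RefSeq with build GRCm38.p6. Capitals mark short GATA words, read on both strands. The words searched were AGATAA with its variant AGATAG, and also TGATAA with its variant TGATAG.
Klf1, chr8:84901732-84902031, plus strand: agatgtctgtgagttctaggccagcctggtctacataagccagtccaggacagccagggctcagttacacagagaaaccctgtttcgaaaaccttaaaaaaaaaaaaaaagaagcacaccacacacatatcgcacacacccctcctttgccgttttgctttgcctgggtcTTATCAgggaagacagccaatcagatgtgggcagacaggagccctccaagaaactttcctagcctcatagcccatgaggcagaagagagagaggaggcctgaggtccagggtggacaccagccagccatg
Gata1, chrX:7967861-7968160, minus strand: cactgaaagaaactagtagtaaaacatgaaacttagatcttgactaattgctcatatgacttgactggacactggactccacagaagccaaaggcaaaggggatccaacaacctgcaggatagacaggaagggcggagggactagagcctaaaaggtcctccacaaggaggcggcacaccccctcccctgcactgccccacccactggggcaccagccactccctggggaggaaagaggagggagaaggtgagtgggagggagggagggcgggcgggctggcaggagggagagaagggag
Pf4, chr5:90772185-90772484, plus strand: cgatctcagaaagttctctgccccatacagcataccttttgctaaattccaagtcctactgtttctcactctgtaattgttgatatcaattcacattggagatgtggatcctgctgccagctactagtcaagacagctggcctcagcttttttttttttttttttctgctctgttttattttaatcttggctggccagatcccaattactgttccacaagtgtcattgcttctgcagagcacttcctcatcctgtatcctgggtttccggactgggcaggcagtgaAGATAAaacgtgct
Gp9, chr6:87777820-87778119, plus strand: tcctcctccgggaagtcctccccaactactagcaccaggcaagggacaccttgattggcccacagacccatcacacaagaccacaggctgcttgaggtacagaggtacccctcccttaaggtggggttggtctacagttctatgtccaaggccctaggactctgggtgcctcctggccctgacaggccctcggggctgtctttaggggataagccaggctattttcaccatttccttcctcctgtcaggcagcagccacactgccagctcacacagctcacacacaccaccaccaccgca

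A GATA word stood in the windows of Klf1 (TTATCA, first base at -80 from the start site), Alas2 (TTATCT at -86) and Pf4 (AGATAA at 37, within the transcribed part). The windows of Gata1, Ppbp and Gp9 held none. Of all 32851 RefSeq promoter windows of this length, 29.8% held such a word. The letters CACACCC, part of the CACC motif that KLF factors bind, stood once each in the Klf1 window (at -116) and the Gata1 window (at -76), and in 7.95% of all windows. The ETS words CGGAAG and AGGAAG, on either strand, stood in the windows of Gata1, Alas2, Pf4 and Gp9, against 46.5% of all windows. Pf4 and Ppbp are neighbours on chromosome 5, with start sites 3917 bases apart. Words of this length are common, and a match is no measured binding site.

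Atg5 read 7.48, 7.57, 7.54, 7.9 and 7.53 in the arrays labelled knockout, against 7.55, 7.57, 7.4, 7.52, 7.38 and 7.59 in the arrays labelled wild type (difference 0.10, SE 0.10, limma adjusted p = 0.842). Its cluster was therefore not lower in the arrays labelled knockout. Where its probes lie relative to the deleted exon was not analysed here, so the value neither bears out nor contradicts a deletion. Knockout and wild type hereafter name the libraries as labelled. Across the series, 22206 transcript clusters entered the comparison as log2 levels (median of each array 6.61 to 6.75), with a precision limited by the 11 arrays. In limma, 0 clusters passed a Benjamini-Hochberg adjusted p of 0.05 (0% of those tested) and 1419 (6.39%) reached 0.05 or less before adjustment. The study's own rule, which asks for a 1.5-fold difference and an unadjusted p no higher than 0.05, called 228 clusters (1.03%), of which 149 were higher and 79 lower in the knockout arrays. Differences below 0 made up 54% of all clusters, with a median of -0.02. The LSEC markers were bright and alike, with a list mean of 11.72 to 11.99 in knockout and 11.70 to 12.02 in wild type arrays over 19 genes. Markers of other liver cells stood apart. Of 16 macrophage markers 15 lay above 0 and 13 were called higher, with a list mean of 8.30 to 10.47 in knockout arrays, against 7.69 to 8.94 in wild type arrays. All 21 hepatocyte markers lay below 0 and 13 were called lower, with a list mean of 7.69 to 9.21 in knockout and 8.60 to 9.97 in wild type arrays. Neutrophil markers had list means of 6.01 to 7.56 in knockout and 6.05 to 7.20 in wild type arrays.

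The 6 transcripts read within the range of the background probes of their array, save Gp9 in 1 array. The 23 antigenomic rows match no mouse sequence and ran from 2.33 to 8.42 in knockout and 2.31 to 8.78 in wild type arrays, with levels that climbed with the number in their name, taken here as the G and C count of the probe, from row 4 up to row 23. Every transcript lay above the mean of these rows in all 11 arrays. Each lay below the brightest of them in all 11 arrays, except Gp9, which did so in 10. Klf1 exceeded 14 to 16 of the 23 rows, Gata1 15 to 18, Alas2 and Ppbp 13 to 16, Pf4 17 to 20 and Gp9 16 to 23. Since the base composition of the probes of each transcript is not known here, these levels do not show whether any of them was expressed. The rows numbered 16 to 20 had means of 5.76 to 7.35 in knockout and 5.87 to 7.46 in wild type arrays, most of the same range. Their means were lower in knockout by 0.11 to 0.12 on the log2 scale. Other rows with means in that range differed by -0.08 (row 21), -0.02 (row 24) and 0.14 (row 25). None of these differences was tested. Of the 23 rows 13 lay below 0.

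**Figure D1:**
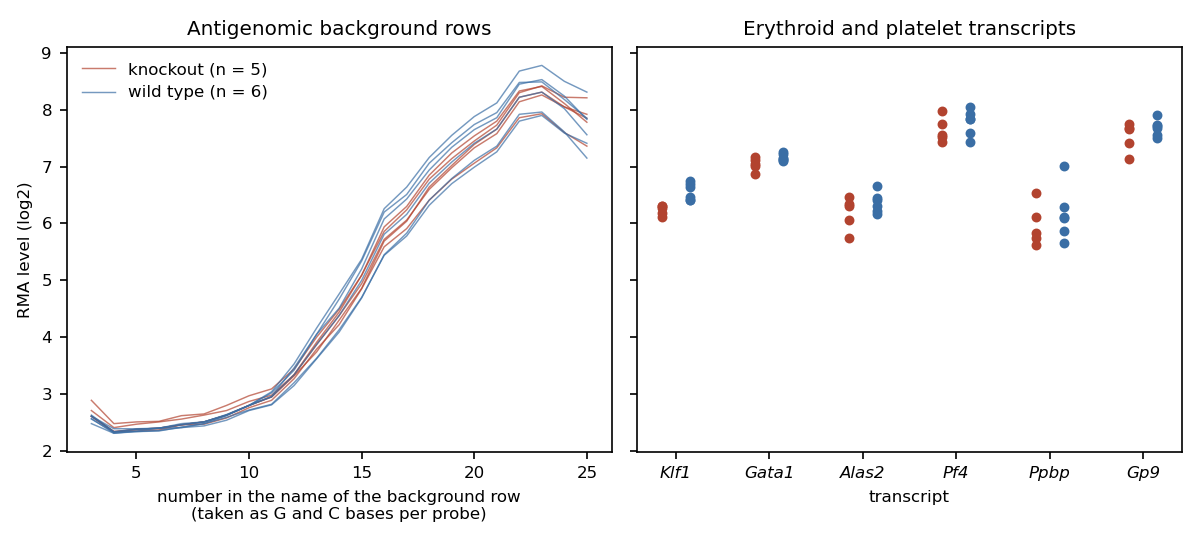
Levels (log2) of the 23 antigenomic background rows against the number in their name, 1 line per array (left), and of the 6 transcripts, 1 point per array (right), on the same vertical scale; knockout in red (n = 5) and wild type in blue (n = 6). The transcripts lie between 5.63 and 8.04, inside the span of the background rows.

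Klf1, the erythroid factor of adult globin expression, was the 1 transcript of the 6 whose groups did not overlap. Its level was 6.19, 6.12, 6.27, 6.31 and 6.31 in knockout arrays 1 to 5, against 6.41, 6.42, 6.69, 6.75, 6.46 and 6.64 in wild type arrays 1 to 6. Every knockout array lay below every wild type array. Knockout arrays had a mean of 6.24 ± 0.08 (SD, n = 5), against 6.56 ± 0.15 (SD, n = 6) for wild type arrays, a log2 difference of -0.32 (SE 0.10, 95% interval -0.54 to -0.10) and 1.25-fold in size. A two-sided exact permutation test over the 462 ways to assign the arrays gave p = 0.00433, and limma gave an unadjusted p of 0.00722 and an adjusted p of 0.765 over all clusters. Klf1 therefore did not pass the adjusted threshold, and its fold was under that of the study's rule. Clusters whose groups did not overlap made up 0.473% of all tested (0.293% with knockout lower), and those lower in knockout at an unadjusted p up to 0.05 made up 3.78%. Adding the macrophage marker mean to the fit gave -0.24 (unadjusted p = 0.111), the 1 refit of those run with a p in which it was above 0.05. It was -0.32 with either measure of the array background (the antigenomic mean or the median of the intron controls) as a covariate.

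Gata1, the factor shared by the red cell and platelet lineages, varied least. It read 7.01, 6.87, 7.11, 7.04 and 7.17 in knockout arrays 1 to 5, against 7.10, 7.15, 7.23, 7.25, 7.13 and 7.12 in wild type arrays 1 to 6. Of the knockout arrays 4 lay below the wild type mean and array 5 above it, so the groups overlapped. Knockout arrays had a mean of 7.04 ± 0.11 (SD, n = 5), against 7.16 ± 0.06 (SD, n = 6) for wild type arrays, with a difference of -0.12 (SE 0.09, 95% interval -0.32 to 0.07). Limma gave an unadjusted p of 0.20 and the exact permutation test p = 0.0455, so these tests fell on different sides of 0.05 before any adjustment. Without knockout array 2, the lowest, the difference was -0.08.

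Alas2 encodes the erythroid form of the rate-limiting enzyme of heme synthesis. It read 6.31, 5.74, 6.47, 6.34 and 6.06 in knockout arrays 1 to 5, against 6.30, 6.22, 6.42, 6.16, 6.66 and 6.44 in wild type arrays 1 to 6. Knockout array 2 was the lowest and wild type array 5 the highest of the 11, and the groups overlapped between 6.16 and 6.47. The difference was -0.18 (SE 0.14, 95% interval -0.49 to 0.12, exact permutation p = 0.253, limma adjusted p = 0.800). Without knockout array 2 it was -0.07, and without both knockout array 2 and wild type array 5 it was -0.01. Adjusted for the macrophage marker mean it turned to 0.027.

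**Figure D2:**
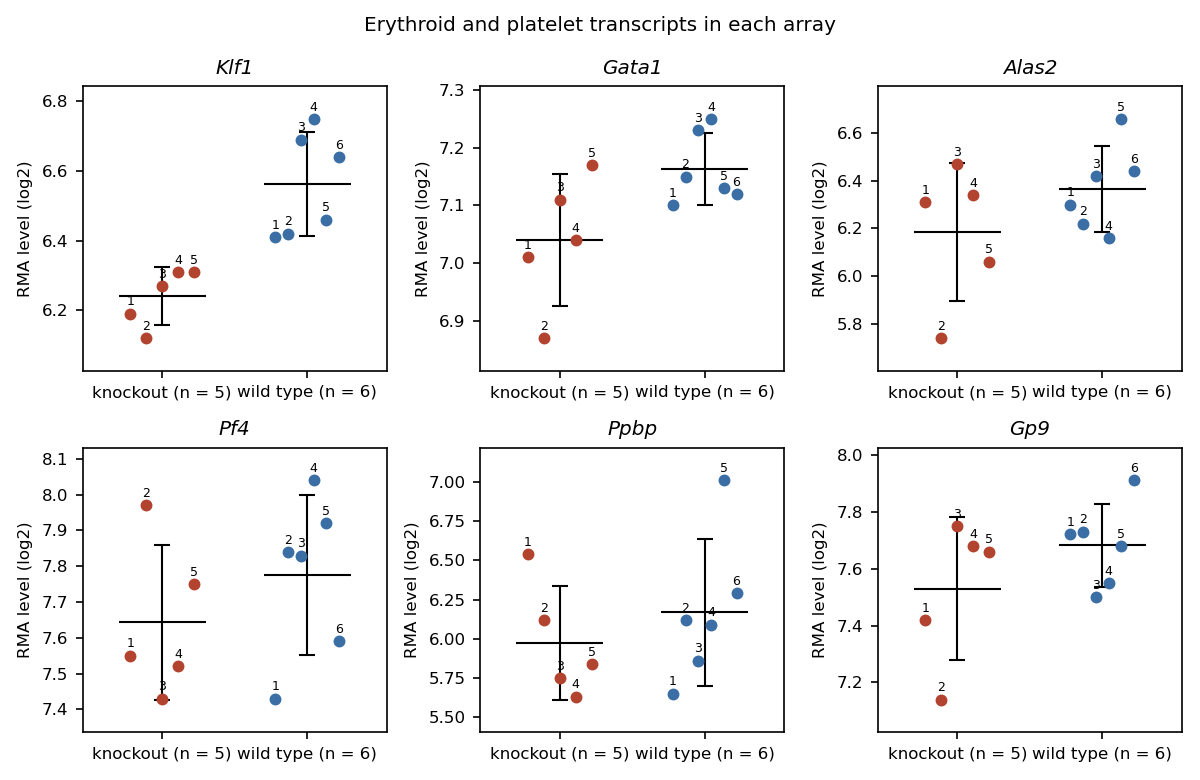
RMA level (log2) of each of the 6 transcripts in the 5 knockout arrays (red, left) and the 6 wild type arrays (blue, right), numbered by replicate, with the mean and SD in black. For Klf1 the knockout points (6.12 to 6.31) lie below all wild type points (6.41 to 6.75), and for the other 5 transcripts the groups overlap.

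Pf4 encodes platelet factor 4 (CXCL4), a chemokine of platelet alpha granules that macrophages are also known to express. Its level was 7.55, 7.97, 7.43, 7.52 and 7.75 in knockout arrays 1 to 5, against 7.43, 7.84, 7.83, 8.04, 7.92 and 7.59 in wild type arrays 1 to 6. The lowest value, 7.43, occurred in both genotypes. Knockout arrays had a mean of 7.64 ± 0.22 (SD, n = 5), against 7.78 ± 0.22 (SD, n = 6) for wild type arrays, a difference of -0.13 (SE 0.14, 95% interval -0.43 to 0.16, exact permutation p = 0.340, limma adjusted p = 0.846).

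Pf4 varied with both measures of array background, in opposite directions. After subtraction of the group means, Pf4 correlated with the antigenomic mean over 11 arrays (Pearson r = 0.798, permutation p = 0.00369, adjusted over 6 transcripts 0.0221; Spearman rho = 0.845, permutation p = 0.00192, adjusted 0.0115). Without the 2 arrays in which Pf4 lay farthest from its median (knockout array 2 and wild type array 1) r was 0.728, and 15.3% of all clusters had an r at least as far from 0. The intron controls, 5222 rows for introns, fell into separate sets of arrays. Their array medians were 5.79 to 6.0 in 4 arrays (knockout 3 and 4, wild type 1 and 6) and 4.96 to 5.36 in the other 7. The 2 background measures were not separate, since the antigenomic mean was 4.67 to 4.88 in the 4 arrays and 4.90 to 5.17 in the 7. Opposite directions for Pf4 are therefore not 2 independent relations. Pf4 read 7.43 to 7.59 in the 4 arrays and 7.55 to 8.04 in the 7. Within the 7 arrays it ran against the intron controls (r = -0.872, exact permutation p = 0.0111, adjusted 0.0667; rho = -0.964, exact permutation p = 0.0028, adjusted 0.0167, and r = -0.617 without the 2 arrays farthest from the median). The share of all clusters with such a relation to the intron controls was not computed. Pf4 also followed the macrophage marker mean (r = 0.772, permutation p = 0.00416, adjusted over 18 relations 0.0749; rho = 0.845, permutation p = 0.00192, adjusted 0.0346; r = 0.734 without the same 2 arrays). An r at least as far from 0 was found for 4.99% of all clusters. Adding that mean, itself higher in knockout arrays, to the fit gave a difference of -0.42 (SE 0.15, unadjusted p = 0.0152). In that fit 1806 of 22206 clusters met the study's rule, against 228 by genotype alone, and Pf4 did not meet it. With the antigenomic mean or the intron control median added instead the Pf4 difference was -0.12 and -0.10. The part of background or macrophage RNA in the Pf4 level was not tested.

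Ppbp, the precursor of the neutrophil attractant CXCL7, varied most, over 1.38 log2 units. It read 6.54, 6.12, 5.75, 5.63 and 5.84 in knockout arrays 1 to 5, against 5.65, 6.12, 5.86, 6.09, 7.01 and 6.29 in wild type arrays 1 to 6. Knockout array 1 and wild type array 5 stood highest in their groups, and the other 9 arrays lay between 5.63 and 6.29. The difference was -0.19 (SE 0.23, 95% interval -0.68 to 0.30, exact permutation p = 0.476, limma adjusted p = 0.866), an interval that includes a 1.5-fold decrease. Leaving out wild type array 5 gave -0.03, and leaving out knockout array 1 gave -0.34. Those arrays also had the highest neutrophil marker means of their groups, 7.56 and 7.20. Wild type array 5 also had the highest macrophage and hepatocyte marker means of its group (8.94 and 9.97). Knockout array 1 had neither in its group. Across the 11 arrays r with the neutrophil mean was 0.463 (permutation p = 0.154; rho = 0.205, permutation p = 0.542), adjusted over 18 relations 0.269 and 0.610, and r turned to -0.437 without those arrays. With the macrophage mean r was 0.578 (permutation p = 0.0584, adjusted 0.256), and 0.601 without the same arrays. Spearman rho was 0.691 (permutation p = 0.0223), which did not pass adjustment over the 18 relations either. For 27.3% of all clusters r with that mean lay at least as far from 0. Adjusted for the macrophage marker mean, Ppbp met the study's rule, with a difference of -0.62 (SE 0.26, unadjusted p = 0.0366), and with the hepatocyte marker mean it turned to 0.11.

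Gp9, a subunit of the von Willebrand factor receptor of platelets, read 7.42, 7.14, 7.75, 7.68 and 7.66 in knockout arrays 1 to 5, against 7.72, 7.73, 7.50, 7.55, 7.68 and 7.91 in wild type arrays 1 to 6. Knockout arrays 1 and 2 lay below all others and knockout arrays 3 to 5 lay within the wild type range. The difference was -0.15 (SE 0.13, 95% interval -0.43 to 0.12, exact permutation p = 0.268, limma adjusted p = 0.810). Without knockout array 2 it was -0.05, and after adjustment for the macrophage marker mean it turned to 0.073. With group means subtracted, Gp9 had r = -0.657 with that mean (permutation p = 0.0294, adjusted over 18 relations 0.256). Spearman rho was -0.482 (permutation p = 0.138, adjusted 0.373). An r at least as far from 0 was found for 16.8% of all clusters. Gp9 read 7.68 to 7.91 in the 4 arrays of higher intron control level and 7.14 to 7.73 in the other 7, the reverse order to Pf4.

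**Figure D3:**
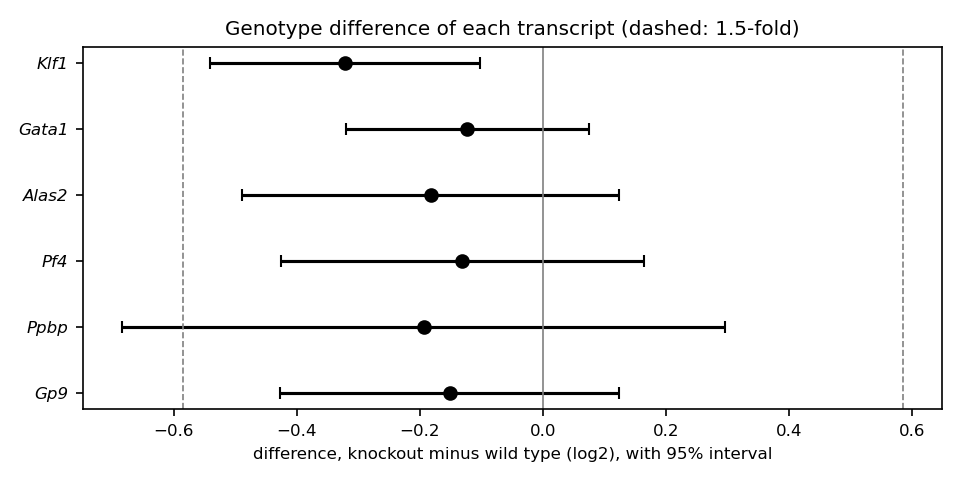
Log2 difference, knockout minus wild type, of each transcript from limma (point) with its 95% interval (bar), over 5 knockout and 6 wild type arrays; dashed lines mark a 1.5-fold difference. All 6 points lie left of 0, the interval of Klf1 alone leaves out 0, and that of Ppbp alone reaches past a 1.5-fold decrease.

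All 6 differences were thus below 0, between -0.32 and -0.12 with a median of -0.17, beside 54% of clusters below 0 in the whole series. None met the study's rule in the fit by genotype alone (0.356% of all clusters met it with knockout lower) and none passed the adjusted p. Knockout array 2 held the lowest value of Klf1, Gata1, Alas2 and Gp9 among the 11 arrays. The same array had the highest macrophage marker mean (10.47) and, among knockout arrays, the highest antigenomic mean (5.04) and the highest hepatocyte marker mean (9.21). Within the 7 arrays of lower intron control level, all 6 transcripts had lower means in knockout (3 arrays) than in wild type (4 arrays), with differences of -0.37 for Klf1, -0.33 for Alas2, -0.21 for Gp9, -0.17 for Gata1, -0.15 for Pf4 and -0.10 for Ppbp. Within the other 4 arrays (2 of each genotype) the differences were -0.24 for Klf1, -0.28 for Ppbp, -0.10 for Gp9 and -0.04 for both Gata1 and Pf4, and Alas2 stood at 0.04.

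With group means subtracted, none of the 15 pairs passed Benjamini-Hochberg adjustment over the pairs. The closest was Klf1 with Gata1 (Pearson r = 0.700, permutation p = 0.0158, adjusted 0.177; Spearman rho = 0.620, permutation p = 0.0465, adjusted 0.349; n = 11), and r was 0.735 without the 2 arrays in which Klf1 lay farthest from its median. Pf4 and Gp9, both platelet genes, had the most negative value (r = -0.671, permutation p = 0.0236, adjusted 0.177; rho = -0.636, permutation p = 0.0404, adjusted 0.349; r = -0.626 without 2 arrays). The neighbours Pf4 and Ppbp had r = 0.365 (permutation p = 0.271, adjusted 0.677; rho = 0.545, permutation p = 0.0880, adjusted 0.440), and r fell to 0.153 without 2 arrays. The heme enzyme Alas2 and Gp9 had r = 0.601 (permutation p = 0.0510, adjusted 0.255; rho = 0.464, permutation p = 0.155, adjusted 0.464), which rested on knockout array 2 and wild type array 4, since r was 0.085 without them.

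**Figure D4:**
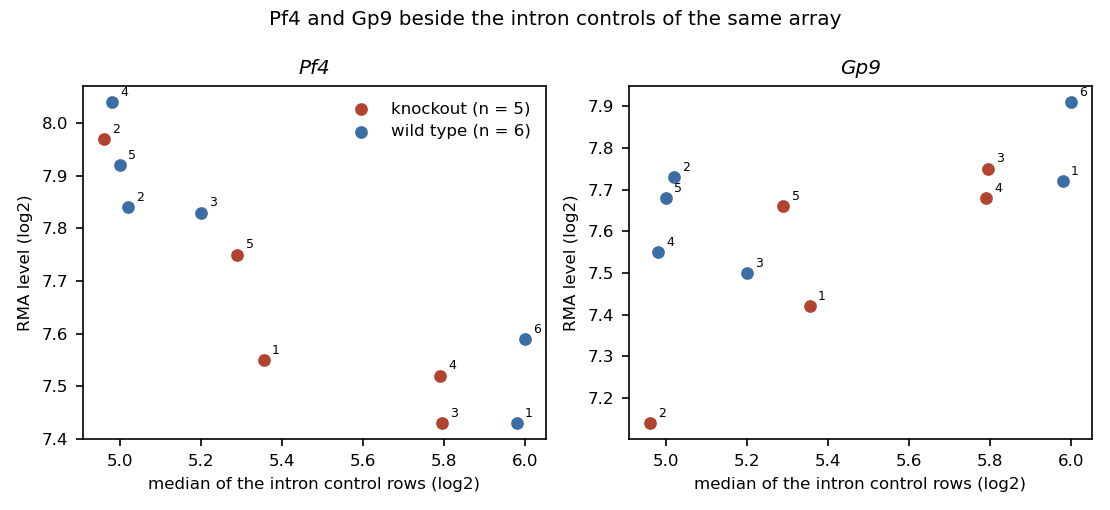
RMA level (log2) of Pf4 (left) and Gp9 (right) against the median of the intron control rows of the same array (log2), 1 point per array numbered by replicate, knockout in red (n = 5) and wild type in blue (n = 6). The arrays form separate sets at 4.96 to 5.36 and at 5.79 to 6.0, and Pf4 is 7.55 to 8.04 in the first set and 7.43 to 7.59 in the second. Gp9 is 7.14 to 7.73 in the first set and 7.68 to 7.91 in the second.

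Other erythroid genes showed small differences. Of 10 erythroid transcription factors 8 lay below 0 with a median of -0.13, and the 4 of smallest p were Klf1, the repressor Gfi1b (-0.22, SE 0.11), Gata1 and Hemgn (-0.15, SE 0.13). The list count changed with the covariate, and both covariates themselves differed between the genotypes. With the hepatocyte marker mean 5 of 10 lay below 0 (median 0.01), while Klf1 (-0.39) and Gata1 (-0.18) moved farther below 0. With the macrophage mean 10 of 10 lay below 0 (median -0.27). Of 10 listed globins and chaperones 3 embryonic globins were measured. Their differences were -0.28 for Hbb-bh1 (SE 0.13), -0.26 for Hba-x (SE 0.13) and -0.22 for Hbb-y (SE 0.22). Hbb-bh1 (mean 4.17 in knockout and 4.45 in wild type) and Hbb-y (4.13 and 4.345) read below the antigenomic mean (4.90 and 4.92). Embryonic globins are normally silent in adult mice. Of 22 genes of the red cell membrane and its enzymes 16 lay below 0 (median -0.08). None met the study's rule, and 4 were lower and 1 was higher at an unadjusted p of at most 0.05 in limma, where the background was 3.78% and 2.61% of clusters. The lower ones were Trim10, a RING finger gene of terminal erythroid differentiation (-0.41, SE 0.12), the Rhesus antigen gene Rhd (-0.42, SE 0.13), the carbonic anhydrase Car1 (-0.40, SE 0.15) and the tetraspanin Tspan33 (-0.28, SE 0.13). The glucose transporter Slc2a1, which many cell types express, was higher by 0.43 (SE 0.17). Slc4a1, the band 3 anion exchanger that fills the red cell membrane, averaged 7.90 ± 0.33 (SD, n = 5) in knockout arrays, against 8.17 ± 0.18 (SD, n = 6) in wild type arrays, a difference of -0.27 (SE 0.15).

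The genes of heme synthesis, most of which all cells use, lay near 0. Of 11 measured genes 7 lay below 0 and 4 above, with a median of -0.02 equal to that of all clusters at 2 decimals, and none met the study's rule. The median was 0.09 with the hepatocyte mean as a covariate, with 4 genes below 0, and -0.20 with the macrophage mean, with 8 below 0. It also lay above 0 without knockout array 3, without wild type array 2 or 4, after centring the arrays and with the intron control median as a covariate (0.01 to 0.05). Alas1, the form of the enzyme outside the red cell lineage, averaged 9.88 ± 0.36 (SD, n = 5) in knockout arrays, against 9.89 ± 0.26 (SD, n = 6) in wild type arrays (difference -0.01, SE 0.17). Fech, which puts iron into the porphyrin ring, differed by 0.07 (SE 0.18). The smallest p belonged to Alad (-0.39, SE 0.23), followed by the mitochondrial iron importer Slc25a37 (0.30, SE 0.21), Alas2 and the mitochondrial carrier Slc25a38 (-0.12, SE 0.12). Hepatocyte markers were lower in the same knockout arrays, and their part in the Alad value was not tested.

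Among platelet genes the called ones were known from other cells too. Of 15 platelet receptor genes, Gp9 among them, 9 lay below 0 (median -0.07) and none met the study's rule. Gp5, another subunit of the receptor that holds Gp9, differed by -0.22 (SE 0.10, unadjusted p = 0.0502). The signalling chain Fcer1g, also used by macrophages, differed by 0.33 (SE 0.21), the thromboxane receptor Tbxa2r by -0.28 (SE 0.20) and the collagen receptor Gp6 by -0.28 (SE 0.20). The fibrinogen receptor chains Itga2b (-0.14, SE 0.11) and Itgb3 (0.08, SE 0.28) and the podoplanin receptor Clec1b (-0.08, SE 0.16) were nearer to 0, as were the alpha granule receptor Treml1 (-0.004, SE 0.11) and the platelet tubulin Tubb1 (-0.19, SE 0.14). Clec1b is also known in Kupffer cells and LSEC and averaged 10.97 ± 0.19 (SD, n = 5) in knockout arrays, against 11.05 ± 0.34 (SD, n = 6) in wild type arrays. Of 13 alpha granule genes, Pf4 and Ppbp among them, 10 lay below 0 (median -0.17). In this list 1 gene met the rule with knockout lower, as did 0.356% of all clusters. It was the fibrinogen chain Fga, a product of hepatocytes (-1.03, SE 0.38, unadjusted p = 0.0179), which did not pass without knockout array 4 (unadjusted p = 0.0501) or 5 (0.0517) and was -0.07 after adjustment for the hepatocyte marker mean. Fga and the other fibrinogen chains, Fgb and Fgg, are themselves among the hepatocyte markers, so that adjustment was no independent check of Fga. In all, 3 granule genes were lower in knockout at an unadjusted p up to 0.05, as were 3.78% of all clusters. Besides Fga they were the coagulation factors F13a1 (-0.32, SE 0.12) and F5 (-0.46, SE 0.18). The adhesive glycoprotein gene Thbs1 differed by 0.66 (SE 0.41). Of 15 other megakaryocyte genes 7 lay below 0 and 8 above (median 0.04), and 2 met the rule with knockout higher (0.671% of all clusters did). These were Plek, a protein kinase C substrate of platelets and leukocytes (0.97, SE 0.29), and the blood cell factor Runx1 (0.65, SE 0.23). The thromboxane synthase Tbxas1 (0.56, SE 0.23) was the third of 3 that were higher at an unadjusted p up to 0.05 (2.61% of all clusters were), and the integrin activator Fermt3 differed by 0.34 (SE 0.22). The median of these 15 genes was not stable in sign, at 0.19 with the hepatocyte mean and -0.07 with the macrophage mean as a covariate. The macrophage marker mean was 9.18 ± 0.82 (SD, n = 5) in these knockout arrays, against 8.05 ± 0.47 (SD, n = 6) in wild type arrays. With that mean as a covariate Plek was 0.64 (unadjusted p = 0.109) and Runx1 0.01, and Runx1 fell under a fold of 1.5 also without knockout array 2 (0.50), without wild type array 1 (0.58) or with array weights (0.49).

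**Figure D5:**
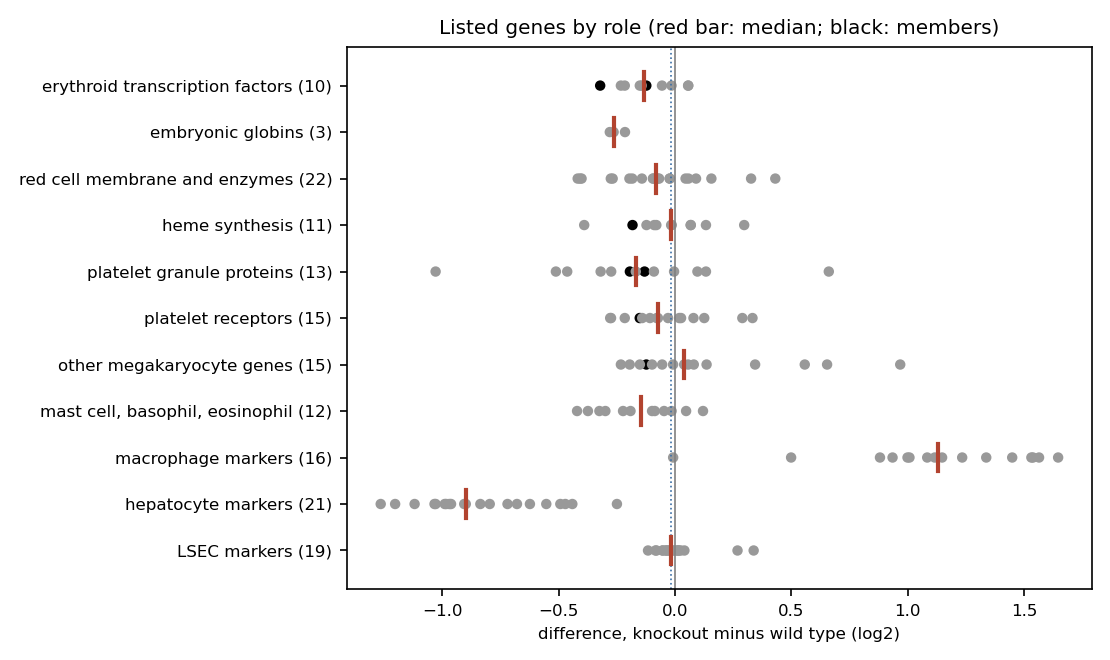
Log2 difference, knockout minus wild type, of each measured gene of 11 lists (points; the 6 transcripts of the report in black), with the list median as a red bar and the median of all clusters as a dotted line. Erythroid and platelet lists lie close to 0, with medians between -0.26 and 0.04, while macrophage markers (median 1.13) and hepatocyte markers (-0.90) lie apart.

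Genes of other GATA1-dependent lineages gave a further comparison. Of 12 mast cell, basophil and eosinophil genes 10 lay below 0 with a median of -0.15, none met the study's rule, and 3 were lower in knockout at an unadjusted p up to 0.05, as were 3.78% of all clusters. They were the mast cell carboxypeptidase Cpa3 (-0.42, SE 0.12), the basophil protease Prss34 (-0.37, SE 0.14) and the eosinophil granule gene Prg2 (-0.33, SE 0.13), and the basophil protease Mcpt8 was at -0.30 (SE 0.14). Cpa3 averaged 4.42 ± 0.18 (SD, n = 5) in knockout arrays, against 4.85 ± 0.17 (SD, n = 6) in wild type arrays. Both averages lay below the antigenomic means of their groups (4.90 and 4.92). Among 14 CXC chemokines, a family that here includes Pf4 and Ppbp themselves, 4 lay below 0 and 10 above. Pf4 and Ppbp were among the 4 below 0. Cxcl2 (0.69, SE 0.19) and Cxcl13 (1.40, SE 0.50) met the rule with knockout higher, as did 0.671% of all clusters. With Cxcl3 (0.39, SE 0.13) and Cxcl1 (0.41, SE 0.17), 4 were higher at an unadjusted p up to 0.05, beside 2.61% of all clusters. With array weights Cxcl2 was 0.55, under a fold of 1.5, and Cxcl13 was 1.02 with an unadjusted limma p of 0.0503. Adjusted for the macrophage marker mean they were 0.40 and 0.12, with 7 of the 14 below 0 and a median of -0.01, against 0.12 in the fit by genotype alone. Cxcl2 was 0.57 without knockout array 1.

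The clusters most like each transcript over the 11 arrays were sought by Pearson r of the levels among 11978 clusters with a symbol, a mean above the antigenomic mean and an SD of at least 0.2, as a description. For Klf1 they were Odam (r = 0.875), an enamel organ gene, Gm5741 (0.865) and the pregnancy glycoprotein Psg20 (0.835). For Gata1 they were the B cell precursor gene Vpreb3 (0.944), the spermatid linker histone H1f7 (0.931) and Ccer2 (0.925). For Alas2 they were Rhbdl2 (0.903), Gpr1 (0.859) and Alpk3 (0.843). Pf4 ran closest to the growth factor gene Fgf6 (0.968), the peroxisomal Pex19 (0.965) and Unc119 (0.942), and 42 clusters reached r = 0.9 with it. Ppbp ran closest to the peroxisomal import receptor Pex7 (0.909), Gm13304 (0.841) and the glucokinase regulator Gckr (0.825). Gp9 ran closest to Spns3 (0.949), the photoreceptor channel subunit Cngb1 (0.948) and Gm833 (0.940). None of these 18 nearest clusters was another gene of the erythroid or platelet lists. The limits on SD and level kept some listed genes out of the search, such as Gata1, Hbb-bh1 and Hbb-y. Their absence was therefore fixed beforehand, and no conclusion is drawn from it.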

How the data were processed

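RNA from mouse liver sinusoidal endothelial cells was labelled from 100 ng and hybridised to 11 Affymetrix whole-transcript arrays. Expression Console and RMA are named in the submitters' processing notes, and RMA (background subtraction, quantile normalisation, probe summary) shrinks differences between dim signals. The deposited values of the authors are log2 levels with 2 decimals (1.86 to 13.79, scale read from the values). Build, scan dates and cell isolation: not given in the sources used here.

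Groups came from the sample titles, 5 knockout and 6 wild type arrays. These titles call the arrays biological replicates but do not state whether an array stands for an animal or a pool. The p-values therefore cover only the spread among these samples. The tests took in 22206 transcript clusters and left out 6640 control rows. Genes were named by the platform annotation. Differences are knockout minus wild type, with limma 3.58.1 in R 4.3.3 (lmFit, eBayes, genotype only, adjustment over all clusters). Single values also had a two-sided exact permutation test, and relations across arrays 100000 permutations (exact for 7 arrays) in Python 3.11.15. The fit was tested on simulated data.

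The members and lists were chosen with earlier results of these data known. Named are the 6 members, 13 further genes where measured, and from each list the genes that met the study's rule, filled up to 4 by smallest p. Tspan33 was named after its value was seen, to complete a count. Relations to background probes were added after the data were seen. Numbers shared between genotypes did not pair arrays, with correlations of deviations of 0.006, 0.389, 0.079, -0.321 and 0.025 for numbers 1 to 5.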

Additional observations from a re-analysis of the deposited data

Results flagged for a closer look

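Among the genes named, 92 sets of values (each gene in each genotype) were examined for a single array far from its group, and 3 were found, beside about 1 in 20 expected by chance. In wild type array 3 the carbonic anhydrase Car1 read 4.88, and the nearest other wild type array read 5.42. In wild type array 5 the Fc receptor chain Fcer1g read 10.62, with the next wild type array at 9.98. In knockout array 2 the thromboxane synthase Tbxas1 read 8.86, with the next knockout array at 7.94. The last 2 arrays had the highest macrophage marker means of their genotypes, 10.47 in knockout array 2 and 8.94 in wild type array 5. None of the 6 erythroid and platelet transcripts had such an array.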

How the results depend on the processing

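Over 24 alternatives the Klf1 difference ran from -0.39 to -0.24 and the Gata1 difference from -0.18 to -0.05, and both kept their direction. Other transcripts turned sign in 1 alternative each, namely Alas2 (0.027) and Gp9 (0.073) with the macrophage marker mean added to the fit, and Pf4 (0.031) and Ppbp (0.11) with the hepatocyte marker mean. Ppbp met the study's rule with the macrophage mean (-0.62), in a fit where 1806 clusters met it. The cause was not tested. Leaving out 1 array at a time gave -0.35 to -0.28 for Klf1, -0.16 to -0.08 for Gata1, -0.25 to -0.07 for Alas2, -0.21 to -0.08 for Pf4, -0.34 to -0.03 for Ppbp and -0.21 to -0.05 for Gp9. With the replicate number as a block the differences were -0.31, -0.13, -0.17, -0.17, -0.17 and -0.11 in the same order, and no call changed. No knockout array correlated best with the wild type array of its own number. Averaging the clusters of a symbol changes nothing here, since each has 1.

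The number of clusters called by the study's rule was 228, against 1806 with the macrophage mean and 549 with the hepatocyte mean as a covariate and 60 at a fold of at least 2, and 171 to 314 with 1 array left out. The replicate block gave 250. At the adjusted p the count was 0, against 23 with the macrophage mean, 6 with the hepatocyte mean, 1 without knockout array 2 and wild type array 5, and 0 to 1 with 1 array left out (1 without wild type array 5). The 2 background measures as covariates and the paired omission were added after seeing the data. Levels within the range of the antigenomic rows limit what any of these differences can show, and RMA compresses them.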
